A study of Schizosaccharomyces pombe with 6 samples.

Results

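Ribosomal protein genes encode the protein part of the cytosolic ribosome, and this account describes how much of the single-stranded DNA-binding protein RPA was recovered with them in fission yeast held in hydroxyurea. Members were the protein-coding genes of the annotation whose name is rpl, rps or rpp followed by a digit, that lie on chromosome II, chromosome III or the stretch of chromosome I where probe and reference coordinates match, and whose body holds the middle of at least 2 array probes. The name pattern is carried by 141 genes, 123 of them lie in those regions, and 94 had enough probes, out of 4150 protein-coding genes tested in the same way. The annotated products of 91 of the 94 name a ribosomal protein, and these were counted as ribosomal protein genes. They are 50 of the large subunit (rpl), 36 of the small subunit (rps) and 5 of the stalk (rpp). Among them rpl701 is annotated as an RNase MRP subunit that is like ribosomal protein L7, and it was kept with the 91. The other 3, rpp1, rpp40 and rpp21, are annotated as subunits of RNase P or RNase MRP, RNA-processing enzymes that share the letters of the name. The label did not hold for those 3, so they are described apart. Every count given for ribosomal protein genes is out of 91 unless fewer are stated.

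The study hybridised 6 two-colour tiling arrays of Schizosaccharomyces pombe, with the immunoprecipitate (IP) of Ssb1, the large subunit of RPA, in 1 dye and its input in the other. One group was cdc25-22, called WT here as in the sample titles (3 arrays), and the other cdc25-22 rad3Δ (3 arrays), so both groups carried the cdc25-22 allele. All cultures were grown in EMM6S medium, blocked by a 4 h shift to 36.5 °C, let go by a return to 25 °C and then treated with hydroxyurea at 6 mM. The time in hydroxyurea, the number of clones and whether the replicates were separate cultures are not given in the sources used here, so p-values measure the spread between these arrays, which may be technical. cdc25-22 is a temperature-sensitive allele of the mitotic activator Cdc25, and warmth holds such cells before mitosis. For rad3Δ replicate 3 the strain of the input channel is written cdc25-23 in the labels, unlike that of its IP channel.

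Hydroxyurea starves cells of deoxynucleotides, so replication forks slow and stretches of single-stranded DNA are exposed. RPA coats such DNA, and Rad3, the fission yeast ATR kinase, is recruited to it and restrains further origin firing. Fission yeast origins often lie in intergenic AT-rich islands. Ribosomal protein genes are short, are among the most heavily transcribed genes of growing yeast, and are mostly present as duplicated copies scattered over the chromosomes. Many of their promoters carry a conserved box, HOMOL-D, that takes the place of a TATA box in fission yeast.

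The HOMOL-D box, with the letters CAGTCACA or TGTGACTG on the opposite strand, was searched from 250 bases before to 50 bases after the annotated start. It was found at 59 of the 91 ribosomal protein genes (64.8%) and at 96 of all 4150 genes tested (2.31%). Its first base lay a median of 51 bases before the start, and within 40 to 60 bases before it at 52 of the 59. It read along the gene at 41 and along the other strand at 18. The stretches from 80 to 21 bases before the start are shown for the 8 ribosomal protein genes whose RPA ratio passed the test between strains. They are written along the gene from assembly ASM294v3, with the box in capitals where these exact letters occur. The first 5 genes were higher in rad3Δ and the last 3 lower.
rpl3602 (chrII:3153408-3153467, + strand): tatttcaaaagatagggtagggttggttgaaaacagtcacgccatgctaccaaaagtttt
rpl1801 (chrII:3361718-3361777, + strand): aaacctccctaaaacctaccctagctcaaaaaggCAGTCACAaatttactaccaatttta
rps901 (chrI:476143-476202, - strand): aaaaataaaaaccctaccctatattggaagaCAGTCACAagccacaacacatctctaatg
rps3 (chrII:4239360-4239419, - strand): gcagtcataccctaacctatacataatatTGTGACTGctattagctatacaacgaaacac
rps3002 (chrII:2349472-2349531, - strand): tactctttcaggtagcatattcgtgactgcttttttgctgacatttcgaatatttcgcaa
rps1802 (chrIII:1033502-1033561, - strand): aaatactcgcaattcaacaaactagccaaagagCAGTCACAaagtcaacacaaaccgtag
rpl1101 (chrI:3346906-3346965, - strand): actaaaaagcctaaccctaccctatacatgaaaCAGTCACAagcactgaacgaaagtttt
rps27 (chrII:517241-517300, + strand): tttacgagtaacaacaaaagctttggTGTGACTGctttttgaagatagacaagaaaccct

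Near-identical copies limit what a probe can tell. Of the 255 probes in the 91 genes, 49 matched another place in the genome over at least 80% of their bases, and 34 genes held at least 1 such probe. The genes rpl3602, rps901, rpl1101 and rps1802, described below for their difference between strains, are among them. At rpl1101 2 of its 3 probes had such a match. The rpl3602 probe matched its copy rpl3601 at 42 of 50 bases, and the rps901 probe matched rps902 at 49 of 57. These pairs are printed along the gene, with the differing bases in capitals.
rpl3602 probe (chrII:3153608-3153657): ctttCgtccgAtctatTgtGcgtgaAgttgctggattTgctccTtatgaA
rpl3601 copy (chrIII:506720-506769): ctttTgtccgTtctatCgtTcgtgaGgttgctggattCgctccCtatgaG
rps901 probe (chrI:475761-475817): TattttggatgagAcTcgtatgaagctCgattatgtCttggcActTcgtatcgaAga
rps902 copy (chrII:2060043-2060099): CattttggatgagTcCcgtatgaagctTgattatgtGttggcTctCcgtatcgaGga
Among the 91 genes 44 had 2 probes, 33 had 3 and 14 had 4 or more, against a median of 6 probes over all genes tested. Their median length was 751 bp, against 1823 bp over all genes.

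Every value below is a log2 ratio of IP over input, averaged over a gene's probes and set so that the median probe of each array is 0. Of 33 probes in rad3 itself, 24 were lost from the rad3Δ input, whose median log2 signal at those probes was -7.40 to -5.10 against -0.49 to -0.19 in WT, as the label states. Median spot intensity was 969 to 1106 for input and 1007 to 1145 for IP, and precision is limited by the small number of arrays. In both strains replicates 1 and 2 carried the IP in green and replicate 3 carried it in red, so a dye effect on a probe appears as replicate 3 standing apart. Each replicate number also had its own slide and scan, so dye order cannot be told apart from what else set replicate 3 apart. The 2 strains occupied different slide positions throughout, so strain and slide position cannot be told apart.

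In WT the ribosomal protein genes lay on the upper side of the array. Their median on the 3 WT arrays was 0.11, 0.08 and 0.12, and 59 of the 91 had an estimated level above 0. The corresponding medians over all genes tested were 0.00, -0.03 and -0.02. In rad3Δ the median was 0.05, -0.10 and 0.11, with 46 of 91 above 0, against 0.00, -0.03 and 0.00 over all genes. The WT medians sat close together and the rad3Δ medians spread over a wider range that included a WT value, as the plot by array shows. In the fit with a dye term the median level of the 91 genes was 0.12 in WT and 0.01 in rad3Δ, and of all genes -0.02 and -0.01.

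**Figure D1:**
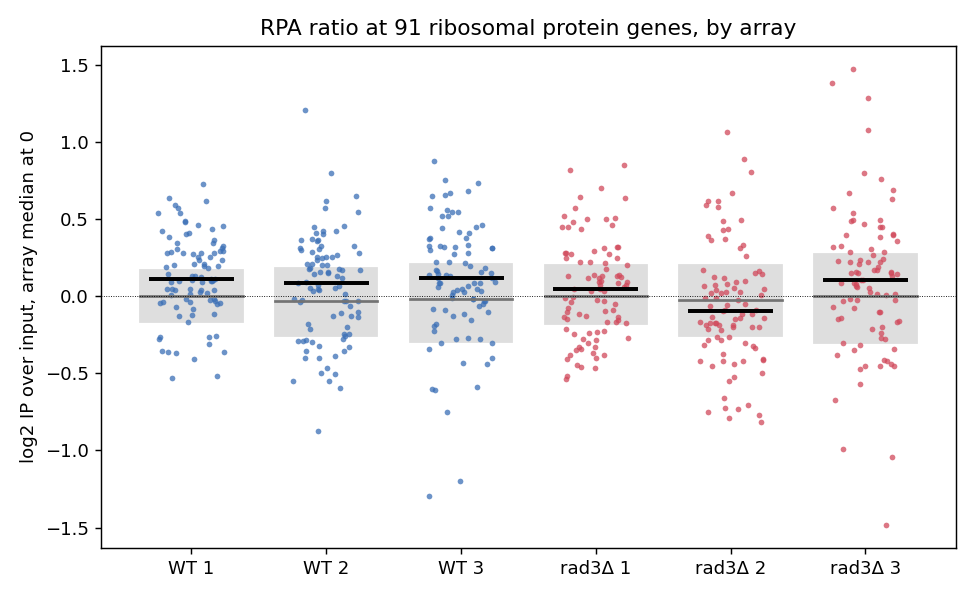
Each dot is 1 of the 91 ribosomal protein genes on 1 array, with log2 IP over input on the vertical axis, the black bar their median, and the grey box and line the quartiles and median of all 4150 genes tested. The black bar lies at 0.08 to 0.12 on the WT arrays and at -0.10 to 0.11 on the rad3Δ arrays, while single genes run from below -0.5 to above 0.5 on every array.

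Tested 1 by 1 against the array median with limma and Benjamini-Hochberg adjustment over all genes, 27 of the 91 were above it in WT and 10 below. Over all genes 19.8% were above and 25.3% below in WT, so the ribosomal protein genes had a larger share above (29.7%) and a smaller share below (11%). In rad3Δ 20 were above (22.0%) and 21 below (23.1%), against 24.4% above and 28% below over all genes. The WT counts were 9 above and 2 below without WT replicate 3, against 4.41% and 8.65% of all genes. The rad3Δ counts were 8 and 4 without rad3Δ replicate 3, against 6.05% and 8.43%. Without rad3Δ replicate 2 the rad3Δ count below was 12, against 20.4%. No test compared the list with other genes, so these shares are a description. Levels of the same gene in both strains had a Spearman correlation of 0.71 over the 91 genes, which share arrays and dyes within each strain.

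Of the 6 highest genes in WT, 3 carry rpl names, 2 are stalk genes (rpp) and 1 is a small-subunit gene. rpl2702, for eL27, measured 0.34, 0.62 and 0.73 in WT and 0.28, 0.39 and 0.69 in rad3Δ. rpl35A01, for eL33, measured 0.73, 0.65 and 0.52 in WT and 0.51, 0.59 and 0.27 in rad3Δ. rpl3202, for eL32, measured 0.63, 0.42 and 0.65 in WT and 0.12, 0.43 and 0.57 in rad3Δ. All 3 were above the array median on every array, and the strains overlapped at each. At the other end rpl3402, for the large-subunit protein L34, was below it on every array, at -0.53, -0.87 and -0.60 in WT and -0.31, -0.77 and -0.67 in rad3Δ.

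Among small-subunit genes the highest in WT was rps1801, for uS13, a protein of the subunit's head, at 0.62, 0.36 and 0.76. It measured 0.46, 0.49 and 0.21 in rad3Δ. The lowest were rps2601 and rps602. rps602 encodes eS6, the classic target of the TOR-dependent S6 kinase, and measured -0.36, -0.60 and -0.59 in WT and -0.13, -0.73 and 0.06 in rad3Δ. rps2601 encodes eS26, a protein near the exit of the mRNA channel, and measured 0.05, -0.55 and -1.30 in WT and 0.45, -0.21 and -0.45 in rad3Δ. Its replicates spread more than those of any gene named so far, with replicate 1 high and replicate 3 low in both strains.

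The stalk is the flexible arm of the large subunit that recruits translation factors, and it is built of P0 with dimers of P1 and P2. rpp0, the gene for its base (uL10), was above the array median in both strains, at 0.38, 0.54 and 0.67 in WT and 0.32, 0.16 and 0.39 in rad3Δ. rpp201, for P2, had the highest WT mean of all 91 genes, 0.79 ± 0.46 (SD, n = 3), from 0.30, 1.21 and 0.87. It measured 0.13, 0.62 and 0.80 in rad3Δ, inside the WT range but for 1 array. The 3 genes for P1 lay far apart from each other. rpp101 was among the lowest of all, at -0.17, -0.55 and -1.20 in WT and -0.17, -0.32 and -1.48 in rad3Δ. rpp102 stood near 0, at 0.28, -0.18 and -0.16 in WT and 0.05, -0.09 and 0.09 in rad3Δ. rpp103 was above 0 on every array, at 0.21, 0.25 and 0.13 in WT and 0.25, 0.58 and 0.31 in rad3Δ. None of the 5 stalk genes passed the test between strains, and their differences ran from -0.28 for rpp201 to 0.18 for rpp103. The low value of rpp101 was most marked on replicate 3 of both strains, where the dyes were exchanged.

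Between strains, 5 of the 91 ribosomal protein genes were higher in rad3Δ (5.49%) and 3 lower (3.30%) at an adjusted p under 0.05. Over all genes 9.86% were higher and 1.28% lower. That fit leaves out the pairing of same-numbered arrays on a slide. With the replicate number as a block, which holds the pairing, 8 were higher (8.79%) and 13 lower (14.3%), so more were lower than higher. Over all genes the block gave 15% and 6.12%, and its calls among the 91 included the 5 and the 3. Without replicate 3 of either strain the counts were 1 and 0, against 2.02% and 0.0241% of all genes. At an unadjusted p under 0.05 they were then 5 and 11 by limma, against 444 and 151 of all 4150 genes. Without rad3Δ replicate 1 only 1 gene was lower, against 0.747% of all genes. The difference was below 0 at 66 of the 91 genes (72.5%) and at 55.9% of all genes, with a median of -0.11 against -0.04. With another background correction (normexp) it was below 0 at 48 (52.7%), against 52.0% of all genes, with medians of -0.03 and -0.01.

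**Figure D2:**
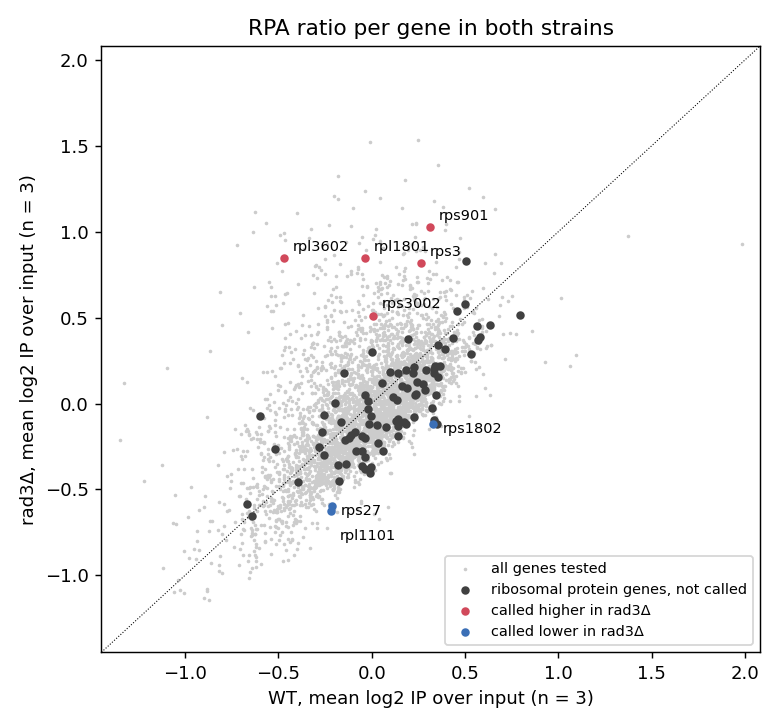
Mean log2 IP over input per gene in WT (horizontal) and rad3Δ (vertical), each over 3 arrays, with all 4150 genes in grey, ribosomal protein genes in black, and the called ones in red (higher in rad3Δ) or blue (lower). Of the 91 genes 66 lie below the dotted line of equality, and the 5 red points stand well above it.

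The largest rise was at rpl3602, a gene for the large-subunit protein L36 (eL36) on chromosome II at 3153488 to 3154041. It measured -0.52, -0.29 and -0.61 in WT and 0.70, 0.37 and 1.47 in rad3Δ. All 3 WT arrays lay below the array median and all 3 rad3Δ arrays above it, with no overlap. The difference was 1.32 ± 0.21 (SE, limma adjusted p = 0.00353), a 2.50-fold change of the ratio. IP signal, scaled by each array's median, went from 0.46 ± 0.67 in WT to 1.98 ± 0.66 in rad3Δ (SD, n = 3), and input from 0.95 ± 0.68 to 1.17 ± 0.54. The IP difference taken alone had a limma adjusted p of 0.0541. The ratio in the 500 bp before the gene was higher still, at -0.18, -0.61 and -0.39 in WT and 1.46, 1.37 and 1.73 in rad3Δ, a difference of 1.91 ± 0.16 (SE, limma adjusted p = 9e-06). With the probe that matches rpl3601 left out, the difference in the gene was 1.16 and still passed.

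rpl1801, for the large-subunit protein L18 (eL18), lies on chromosome II at 3361798 to 3362632. It measured -0.07, 0.16 and -0.19 in WT and 0.64, 0.62 and 1.28 in rad3Δ, and the strains did not overlap. The difference was 0.88 ± 0.17 (SE, limma adjusted p = 0.0082). It is the 1 ribosomal protein gene whose IP signal alone passed, with a difference of 1.01 (limma adjusted p = 0.0133). The 500 bp before it rose too, by 0.63 ± 0.15 (SE, limma adjusted p = 0.012). Without replicate 3 of either strain the call on the gene was lost.

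rps901 encodes S9 (uS4), which with uS3 lines the entry of the mRNA channel, and lies on chromosome I at 475354 to 476122. It had the highest level of any ribosomal protein gene in rad3Δ, at 0.64, 1.06 and 1.38, against 0.23, 0.19 and 0.52 in WT. Each rad3Δ array exceeded every WT array. The difference was 0.71 ± 0.13 (SE, limma adjusted p = 0.00618), and 0.68 without the probe that matches rps902. rps3, for uS3 itself, lies on chromosome II at 4238212 to 4239339 and measured 0.45, 0.04 and 0.30 in WT and 0.57, 0.80 and 1.08 in rad3Δ. The strains did not overlap, the difference was 0.55 ± 0.14 (SE, limma adjusted p = 0.0284), and the 500 bp before it rose by 0.54. The calls on rps901 and rps3 were lost without replicate 3 of either strain, and that on rps3 also without replicate 2 of either. Without the dye term the call on rps3 was lost too.

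rps3002, for the small-subunit protein eS30, lies on chromosome II at 2348960 to 2349451. It measured 0.11, 0.21 and -0.30 in WT and 0.50, 0.37 and 0.67 in rad3Δ, without overlap. Its difference was 0.51 ± 0.14 (SE, limma adjusted p = 0.0485), just inside the threshold. The call on rps3002 was lost without replicate 1 or replicate 3 of either strain. It was also lost without the dye term, with normexp, after correction for probe G+C and with the authors' ratios. With normexp each of the genes called higher lost its call.

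The 3 genes that were lower in rad3Δ changed by less. rps1802, the other copy for uS13, lies on chromosome III at 1032876 to 1033481 and measured 0.20, 0.42 and 0.37 in WT and -0.24, 0.05 and -0.17 in rad3Δ. The difference was -0.45 ± 0.12 (SE, limma adjusted p = 0.0334), with no overlap. One of its 3 probes was not well above background in the IP of any rad3Δ array, so that probe gives only a bound there. With only its probes that were well above background on all arrays, the difference was -0.19 and did not pass. Leaving out its probe that has another copy removed the same probe and gave the same -0.19. The call was also lost without WT replicate 2, WT replicate 3, rad3Δ replicate 1 or rad3Δ replicate 3. Nor did it hold without the dye term or with the median over probes. rps27, for eS27, lies on chromosome II at 517321 to 517984 and measured -0.27, -0.36 and -0.02 in WT and -0.54, -0.81 and -0.44 in rad3Δ. Here too the strains did not overlap, and the difference was -0.38 ± 0.11 (SE, limma adjusted p = 0.0489). Without any 1 array other than rad3Δ replicate 1, the call on rps27 was lost. It was also lost without the dye term, with the median over probes, with mode centring, with normexp and with the authors' ratios.

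rpl1101 encodes uL5, part of the complex that holds 5S rRNA in the large subunit, and lies on chromosome I at 3346068 to 3346885. It measured 0.02, 0.08 and -0.75 in WT and -0.51, -0.32 and -1.04 in rad3Δ. WT replicate 3 lay below 2 rad3Δ arrays, so the strains overlapped, although each rad3Δ array was below the WT array of its number. The fitted difference was -0.41 ± 0.10 (SE, limma adjusted p = 0.0321). The call did not hold without any 1 array other than rad3Δ replicate 2. Nor did it hold without the dye term or with the median over probes. With normexp the differences at rpl1101 and rps1802 were 0.29 and 0.03, opposite in sign.

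**Figure D3:**
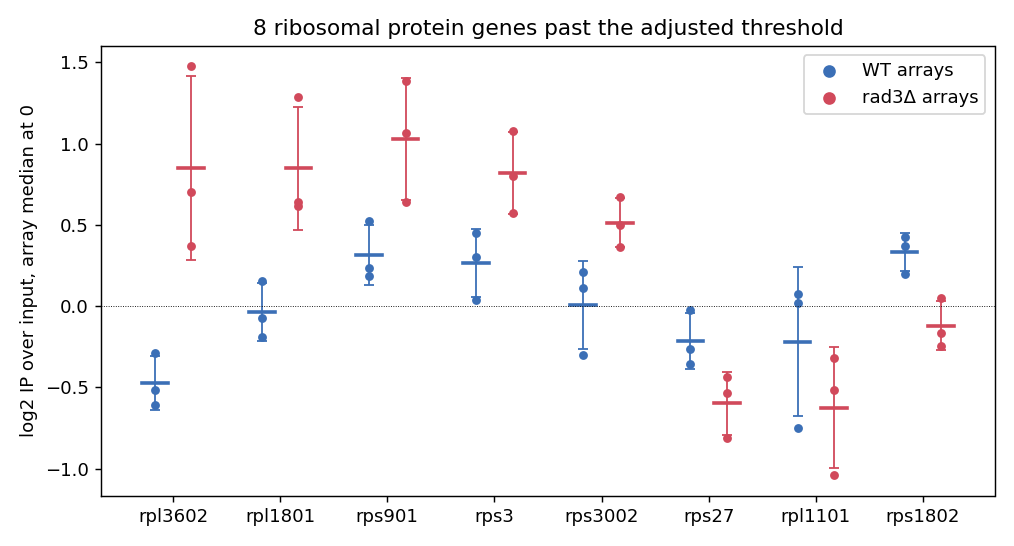
Log2 IP over input on each array (dots), with mean and SD over 3 arrays, for the 8 ribosomal protein genes past the threshold, WT in blue and rad3Δ in red. The strains separate at 7 of the 8 genes, and at rpl1101 WT replicate 3, at -0.75, lies among the rad3Δ arrays.

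The rises were not bounded by the genes. Probes measured on all 6 arrays were taken in each gene and the 3000 bp on either side. At rpl3602 16 of 20 had all 3 rad3Δ arrays above all 3 WT arrays. So did 17 of 25 around rps3002, 14 of 25 around rps3, 11 of 22 around rps901 and 9 of 21 around rpl1801. Over all such probes 10.5% did. The counts hold the probes by which the genes were called, so they describe the loci and do not test them. The probe with the largest change lay at -149 bp from the start of rpl3602, where WT averaged -0.52 ± 0.36 and rad3Δ 1.58 ± 0.46 (SD, n = 3). At rpl1801 it lay inside the gene, 249 bp past the start, at rps3 at -983 bp, at rps3002 1186 bp past it and at rps901 3085 bp past it. The falls covered fewer probes: rad3Δ lay wholly below WT at 6 of 23 around rps27, 3 of 24 around rpl1101 and 2 of 22 around rps1802, against 7.06% of all such probes. At rps1802 the largest fall was at 1 probe in the gene, 366 bp past its start, and there the strains overlapped. It measured -0.04, 0.68 and 0.88 in WT and -0.93, -0.57 and 0.08 in rad3Δ. This is the probe that was not well above background in the IP of any rad3Δ array.

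**Figure D4:**
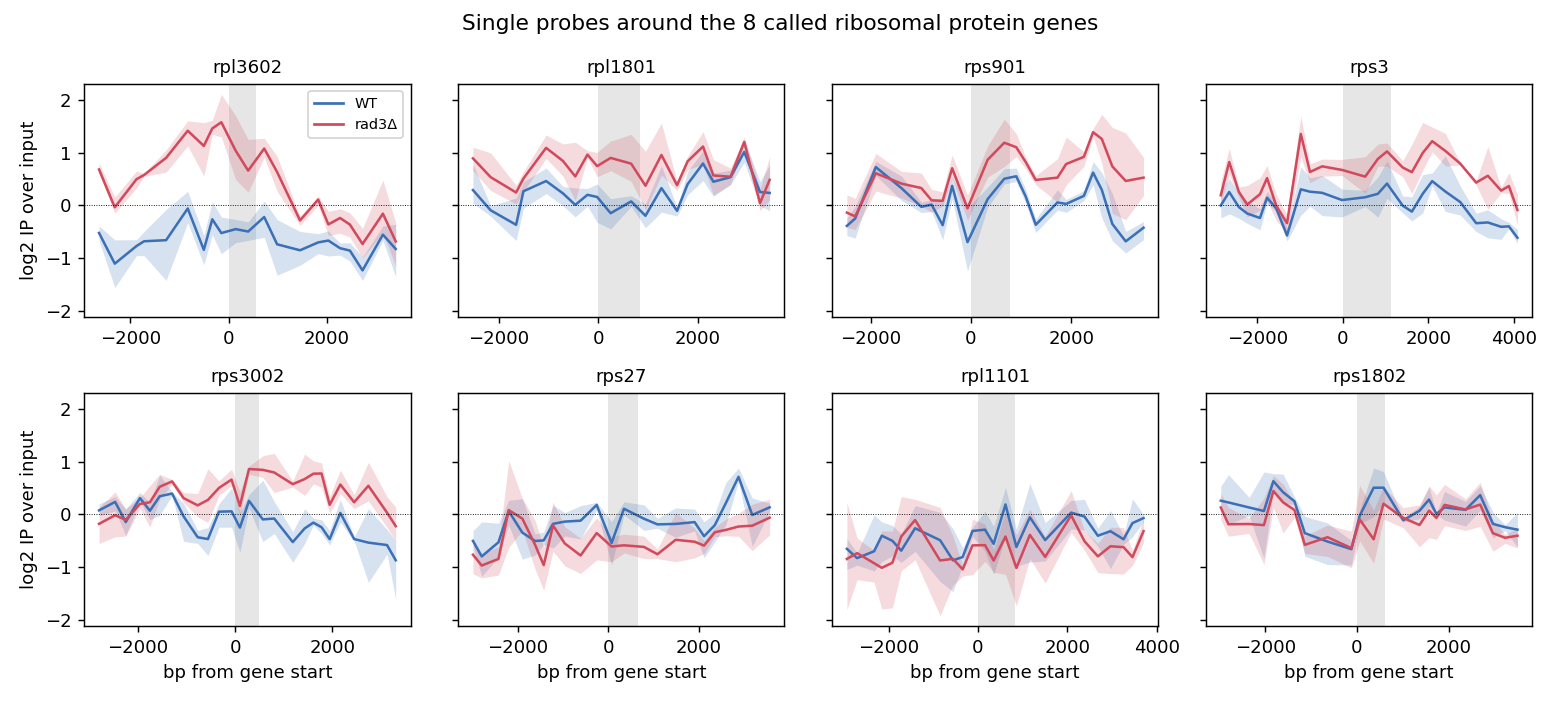
Single-probe log2 IP over input against distance in bp from the gene start, along the gene, for the 8 called ribosomal protein genes, with the line the mean and the band the range of the arrays measured, and the grey block the gene. Around rpl3602 the rad3Δ line peaks at -149 bp, whereas around rps1802 the lines part at few probes.

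Upstream windows of 500 bp could be tested at 68 of the 91 genes. Higher in rad3Δ were 3, those of rpl3602, rpl1801 and rps3, and 0 were lower by limma. Over all windows tested 9.19% were higher and 0.579% lower. At an unadjusted p under 0.05 the counts were 9 and 4, against 15.6% and 5.11% of all windows. The replicate block gave 7 higher, against 11.5% of all windows, and added rps2601, rps3002, rpl3001 and rpl3201. Along the gene the WT mean of the ribosomal protein genes was 0.05 ± 0.04 in the 500 bp upstream, 0.04 ± 0.06 in the gene before its midpoint, 0.14 ± 0.06 after the midpoint and 0.13 ± 0.07 in the 500 bp downstream (SD over 3 arrays). Over all genes the same parts had 0.01 ± 0.04, -0.06 ± 0.02, -0.02 ± 0.04 and 0.05 ± 0.06. In rad3Δ the ribosomal protein genes had 0.00 ± 0.13 before the midpoint and 0.05 ± 0.04 after it.

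Duplicated copies make it possible to compare genes for closely similar proteins at different places. The 91 genes held 30 groups of 2 or 3 measured copies whose proteins share at least 60% of residues, 62 genes in all. Over the 34 pairs of copies the median gap in the strain difference was 0.21, and over the 4061 pairs of genes from different groups it was 0.20. The corresponding gaps in WT level were 0.29 and 0.27, and in rad3Δ level 0.40 and 0.31. By these medians copies were no closer to each other than ribosomal protein genes of different groups. At 15 of the 30 groups the copy with the highest WT mean exceeded the copy with the lowest on all 6 arrays. The WT arrays that set this order are among the 6, so the count describes the copies and does not test their order. In groups of 3 the middle copy did not enter this count. In the fit with a dye term 1 copy passed the test between strains in 5 groups, and in 0 did both. With the replicate block both rpl901 and rpl902 passed, in opposite directions, and further groups held a call.

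The widest split was at rpl3602 and rpl3601, whose proteins are 97.0% identical. rpl3601, on chromosome III, measured -0.28, -0.40 and -0.09 in WT and -0.45, -0.38 and -0.08 in rad3Δ, and so did not share the rise of rpl3602 (difference -0.04 ± 0.10, SE). The gap between the differences of both copies was 1.36. rps902, the partner of rps901 on chromosome II, measured -0.26, 0.07 and 0.09 in WT and -0.35, -0.75 and -0.03 in rad3Δ. Its difference of -0.34 did not pass and ran opposite to that of rps901, a gap of 1.06. rpl1802, the partner of rpl1801 on chromosome I, measured 0.04, -0.50 and -0.03 in WT and -0.38, -0.10 and 0.15 in rad3Δ, a gap of 0.83. The gaps themselves were not tested.

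A further 3 groups had wide gaps without a call in the fit with a dye term. At rps2601 the difference was 0.53 (limma adjusted p = 0.126, and 0.00836 with the replicate block), and at its partner rps2602, at 0.48, 0.17 and 0.44 in WT and 0.48, 0.01 and 0.17 in rad3Δ, it was -0.15. rpl901, for L9 (uL6), measured 0.57, 0.41 and 0.55 in WT and 0.85, 0.89 and 0.76 in rad3Δ. Those arrays did not overlap, and its difference was 0.33 (limma adjusted p = 0.0685, and 0.0278 with the replicate block). Its partner rpl902 measured 0.19, 0.17 and 0.06 in WT and -0.02, -0.09 and -0.45 in rad3Δ, also without overlap. Its difference was -0.33 (limma adjusted p = 0.0675, and 0.0285 with the replicate block). rpl3801, for eL38, measured 0.13, 0.80 and 0.12 in WT and -0.12, 0.10 and -0.35 in rad3Δ, a difference of -0.47 (limma adjusted p = 0.0902, and 0.01 with the replicate block). Its partner rpl3802 measured 0.40, 0.31 and 0.66 in WT and 0.82, 0.31 and 0.49 in rad3Δ, a difference of 0.08.

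In WT level alone the widest gap was between rps2602 and rps2601, 0.97 on average and 0.44 to 1.74 by array. rpp103 exceeded rpp101 by 0.84, rpl3202 exceeded rpl3201 by 0.83 and rpl35A01 exceeded rpl35A02 by 0.74. In each of these 4 groups the copies just named kept their order on all 6 arrays. The groups were chosen by their WT gap, so the order on the WT arrays is no separate evidence. The remaining copy for P1, rpp102, lay above rpp103 on a WT array. rpl3201 measured -0.36, -0.13 and -0.28 in WT and -0.33, 0.03 and 0.10 in rad3Δ. rpl35A02 measured 0.09, -0.02 and -0.40 in WT and -0.21, -0.14 and -0.20 in rad3Δ. None of the probes in these 4 groups had another copy over at least 80% of its bases.

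**Figure D5:**
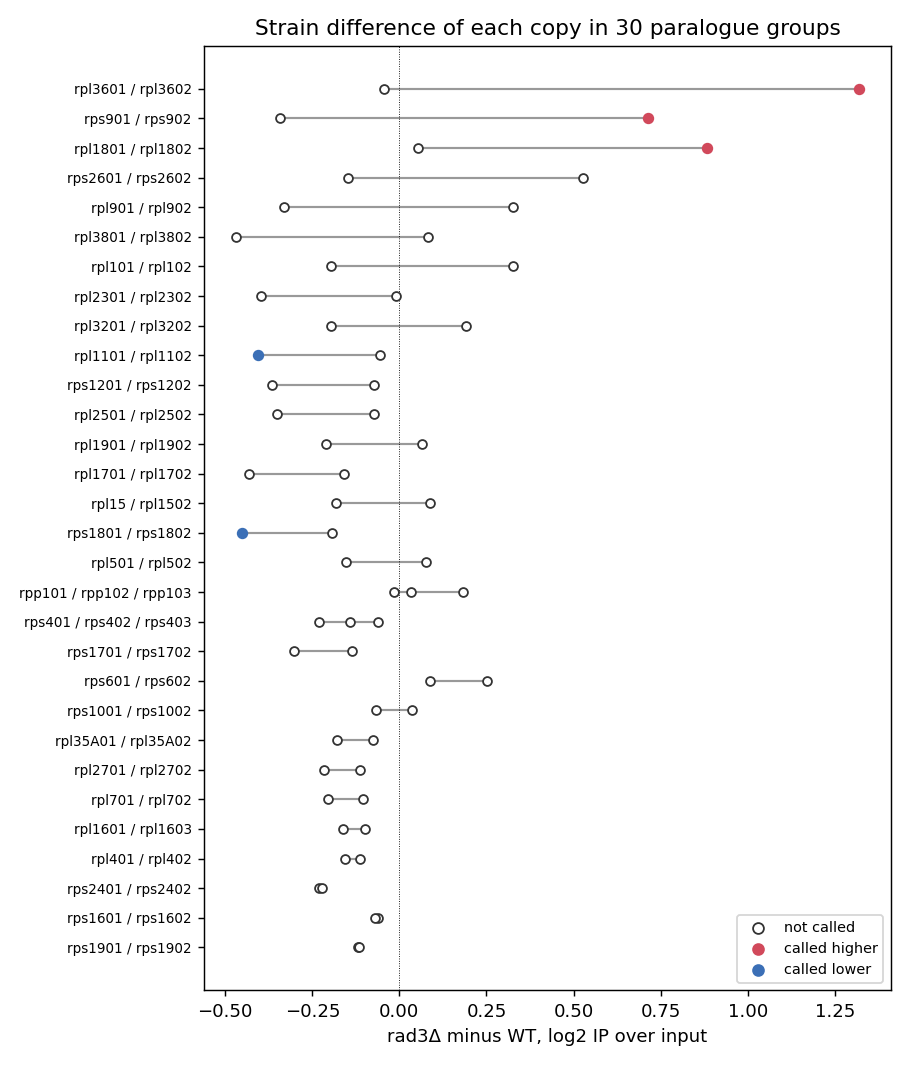
Strain difference (rad3Δ minus WT, log2 IP over input, horizontal) of each measured copy in the 30 paralogue groups, ordered by the gap between copies. Filled points passed the threshold in the fit with a dye term. The top group, rpl3601 with rpl3602, spans -0.04 to 1.32, and the filled point stands alone in each of the 5 groups that have one.

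Across the genome, arrays did not overlap at 6 ribosomal protein genes in the higher direction and 14 in the lower, against 15.4% and 11.8% of all genes. The 33 genes on chromosome I had a median difference of -0.06, the 38 on chromosome II -0.11 and the 20 on chromosome III -0.18. All tested genes on those chromosomes had 0.02, -0.01 and -0.14. On chromosome III 0 ribosomal protein genes were higher and 1 was lower, against 2.29% and 2.17% of all genes there. Genes with and without the HOMOL-D box had the same median level in WT, 0.12, and the same median difference, -0.11. Of the 59 genes with the box 3 were higher and 3 lower (5.08% each), and of the 32 without it 2 (6.25%) and 0. With the replicate block 5 with it were higher (8.47%) and 11 lower (18.6%), against 3 (9.38%) and 2 (6.25%) without it. Of the 37 other genes with the box 2 were higher (5.41%) and 4 lower (10.8%). Over all genes 9.86% were higher and 1.28% lower, and 15% and 6.12% with the block. These shares were not tested.

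AT-rich islands were taken as 500 bp windows with at least 75% A+T. Ribosomal protein genes lay a median of 9157 bp from the nearest one and all genes 9317 bp. Within 1000 bp of an island lay 10 ribosomal protein genes, of which 1, rpl1801 at 148 bp, was higher in rad3Δ. Of the 551 genes of any kind within that distance 29.9% were higher. rps3 lay 1362 bp from an island, rps901 1454 bp, rpl3602 7210 bp and rps3002 29660 bp.

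Neighbouring ribosomal protein genes did not always move together. rpl1801 and rpl502, for L5 (uL18), a 5S rRNA-binding protein, lie 2077 bp apart on chromosome II. rpl502 was high in both strains, at 0.54, 0.29 and 0.68 in WT and 0.44, 0.67 and 0.63 in rad3Δ, a difference of 0.08 beside 0.88 for rpl1801. By contrast rpl35 and rpl902, 203 bp apart on chromosome III, had differences of -0.34 and -0.33. Neither passed in the fit with a dye term (limma adjusted p = 0.0817 and 0.0675). All tested genes on chromosome III had a median difference of -0.14.

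Input signal did not separate the strains at any ribosomal protein gene: limma called 0 of 91, with 0 at an unadjusted p under 0.05, and 0% of all genes. The IP signal alone passed at 1 gene in the higher direction and 0 in the lower, against 6.67% and 0.747% of all genes. With the replicate block 8 were higher and 25 lower, against 17.1% and 15.1%. At an unadjusted p under 0.05 without the block the IP counts were 8 and 18, against 15.1% and 10.3% of all genes. Input and ratio were related across the genes, with a Spearman correlation of -0.44 in WT and -0.33 in rad3Δ over 91 genes, where both measures hold the same input. Genes of low input signal, such as rps1801 at -1.39 ± 0.39 in WT (SD, n = 3), thus tended to have the higher ratios, and the part of this in the levels was not tested.

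Of the 3 RNase P and MRP subunit genes described apart, rpp40 rose. It measured 0.02, -0.04 and 0.09 in WT and 0.78, 0.92 and 1.35 in rad3Δ, over 7 probes, with a difference of 0.99 ± 0.11 (SE, limma adjusted p = 0.000879). It overlaps an AT-rich island. rpp1 measured 0.27, 0.28 and 0.43 in WT and 0.08, 0.03 and 0.26 in rad3Δ, and rpp21 had a difference of -0.05. Neither passed the test.

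Genes of related function were counted in the same way. Of 46 genes for mitochondrial ribosomal proteins, 3 were higher in rad3Δ (6.52%) and 1 lower (2.17%), with a median difference of -0.02. The block gave 9 (19.6%) and 1. Over all genes 9.86% were higher and 1.28% lower, and 15% and 6.12% with the block. The largest rise was at mrpl40, with -0.17, -0.73 and -0.74 in WT and 0.63, 0.69 and 0.79 in rad3Δ, and the largest fall at mrp49, with 0.10, 0.18 and 0.21 in WT and -0.26, -0.08 and -0.26 in rad3Δ. Of 24 genes for cytosolic translation factors, 2 were higher and 2 lower (8.33% each), with a median difference of -0.06. Their largest rise was at tif211, for the alpha subunit of eIF2, by 0.50 ± 0.10 (SE, limma adjusted p = 0.0105). Their largest fall was at tef3, for elongation factor eEF3, with -0.06, -0.03 and -0.14 in WT and -0.60, -0.60 and -0.63 in rad3Δ. Differences between these lists and the ribosomal protein genes were not tested.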

How the data were processed

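The 6 arrays were grouped by the strain in their titles. Per the file headers, the deposited scanner files hold spot intensities from Agilent Feature Extraction 10.7.1.1 or 10.7.3.1 (10.7.3.1 per the submitters' processing notes), background-subtracted and scaled by 1 linear factor per dye, and a deposited log10 ratio of red over green. Median spot and background intensities were deposited too. The matrix of the series gives the authors' linear IP-to-input ratio, which equalled the scanner ratio within 1% for 100% of values. The labels' protocols mention RNA, but the channels are IP and input by their labels.

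Log2 of IP over input was taken from the processed intensities and centred on each array's median, without loess or quantile steps, and outlier spots were left out. Probe coordinates follow the headers' build, Spombe:NCBI:Feb2002. Genes come from ASM294v3, used only where probe positions match it. Gene means over at least 2 probes went into a limma model (version 3.58.1, R 4.3.3) holding a strain mean for each group plus a dye-order term, tested two-sided with Benjamini-Hochberg adjustment over all genes tested at 0.05. Strain levels from the fit are midpoints of both dye orientations, and means ± SD are plain means of 3 arrays. The fit had 3 residual and 7.02 prior degrees of freedom. On simulated data at 4150 genes it recovered 50% of differences of 0.5 and 90% of differences of 1 (log2). The simulated errors were independent between arrays, unlike those of same-numbered arrays here, so these rates may not hold for the data.

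Deviations of same-numbered arrays from their strain means correlated at 0.58, 0.49 and 0.59, over 0.1 in every pair, and same-numbered arrays shared a slide, so the replicate number pairs the samples. The main fit held the dye order but not this pairing, which only the replicate block takes into account. The block called 8 ribosomal protein genes higher and 13 lower, against 5 and 3 in the main fit. Other copies of probes were found with blastn 2.17.0. Protein identity came from coding sequences translated and aligned with Biopython 1.88.

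Named genes were the 6 highest and 4 lowest in each strain, all genes past the threshold, the 6 paralogue groups with the largest gap in the difference and the 4 with the largest gap in WT, and the stalk genes. Others named are neighbours or block calls, chosen after their values were seen. Members and lists were chosen with earlier results of these data known. Alternatives covered the dye term, replicate block, probe summary, probe number, centring, background correction (normexp, offset 50), the authors' ratios, dim probes, G+C and leaving out arrays. Leaving out probes with another copy was chosen after seeing the data.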

Additional observations from a re-analysis of the deposited data

How the results depend on the processing

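A count below with no share of all genes beside it shows only how far the calls depend on the processing. Between strains, 5 ribosomal protein genes were higher and 3 lower as reported. These counts were 3 and 0 without the dye term and 8 and 13 with the replicate block. They were 1 and 0 without replicate 3 of both strains and 0 and 0 with normexp. Among the 14 genes with 4 or more probes they were 0 and 0. The median over probes gave 5 and 0. With only probes well above background they were 4 and 1, among 85 genes. There rps901 and rpl1101 had too few probes to be tested, so their calls were neither kept nor lost. At an unadjusted p under 0.05, limma had 7 and 11 without the dye term (14.6% and 5.45% of all genes), 5 and 11 with normexp (10.4% and 6.67%), 8 and 13 with the median over probes (15.7% and 9.9%) and 0 and 4 at 4 or more probes (17.1% and 11.3%). Leaving out 1 array gave 1 to 6 higher and 0 to 2 lower. Without replicate 3 of 1 strain, the remaining array in that dye order sets the dye term alone. Levels above the array median in WT and rad3Δ numbered 27 and 20 as reported and 12 and 12 without replicate 3 of both strains. Among the 14 genes with 4 or more probes they numbered 4 and 2. With normexp 16 were above it in WT. Leaving out 1 array gave 9 to 30 and 8 to 26. Levels below the array median numbered 10 and 21 as reported and 4 and 12 without replicate 3 of both strains. Among the 14 genes with 4 or more probes they numbered 1 and 3. They numbered 4 and 8 with normexp, and 2 to 10 and 4 to 22 leaving out 1 array. Higher upstream windows numbered 3 as reported, 1 without the dye term, 7 with the replicate block, 1 without replicate 3 of both strains, 5 with mode centring, 0 with normexp (3 unadjusted, against 6.91% of all windows), 5 with only probes well above background, and 1 to 8 leaving out 1 array, with 0 to 1 lower. IP differences numbered 1 as reported, 3 without the dye term, 33 with the replicate block, 0 without replicate 3 of both strains, 0 at 4 or more probes, and 0 to 6 leaving out 1 array. Input differences numbered 0 under each alternative run. The replicate block ended no call and gave calls to rps2601, rpl901, rpl902 and rpl3801 among the named genes.

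The difference at rpl3602 kept its sign in its 16 alternatives, from 0.94 to 1.52, and its call in 15, with an adjusted p of 0.293 under normexp. The median difference of the ribosomal protein genes measured stayed below that of all genes in each alternative run. It ran from -0.15 without replicate 3 to -0.03 with normexp. With normexp that of all genes was -0.01, and the shares below 0 were 52.7% and 52.0%. Over the 31 named genes 493 values were recomputed, of which 399 kept direction and call, 55 lost a call, 8 gained one and 33 changed sign, 2 of these among the 55. With normexp the difference turned to 0.29 at rpl1101, 0.033 at rps1802, 0.0093 at rpl3202, 0.32 at rpp101, -0.072 at rpl901, 0.13 at rpl3601, -0.37 at rpl1802, 0.061 at rps2602, -0.095 at rpp103, -0.16 at rpl3201 and 0.096 at rpl35A02. Without replicate 3 of both strains it turned to 0.12 at rpp101, -0.0094 at rpl1802 and -0.071 at rpp102. It turned to 0.0095 at rpp101 with mode centring, -0.011 at rpl502 with only probes well above background and -0.016 at rpl1802 without probes with another copy. Leaving out 1 array, differences ran from -0.51 to 0.0091 at rpp201, -0.069 to 0.20 at rpl3402, -0.16 to 0.12 at rpp101, -0.014 to 0.14 at rpl502, -0.083 to 0.23 at rpl1802, -0.096 to 0.21 at rpl3802 and -0.071 to 0.20 at rpp102. The causes were not tested. With 2 or 3 probes at most genes and 3 arrays a strain, differences under 0.5 were often below what the test can call.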
